A study of Arabidopsis thaliana with 18 samples.

Results

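The response of Arabidopsis thaliana seedlings to 3 h of jasmonic acid (JA) was compared between the mutant ecap-2 and the Col-0 wild type (WT). The measure is the interaction of genotype and treatment, which is the change from 0 to 3 h in ecap-2 less the change from 0 to 3 h in WT. It rests on 12 of the 18 RNA-seq libraries of the series, 3 from each of 4 groups. The groups are ecap-2 after 3 h on JA, ecap-2 at 0 h, WT after 3 h on JA and WT at 0 h. All were whole seedlings aged 6 days, grown on MS medium with sucrose in long days, and the treated ones were moved to plates with 50 µM JA. The other 6 libraries, taken at 1 h, entered the estimate of the spread. The labels name ecap-2 without saying what kind of mutation it carries, and it is a single mutant line. Seedlings moved to plates without JA were not analysed here, so the move, the hours that passed and JA cannot be told apart. The labels do not say whether replicates are separate cultures, and the p-values speak of how far these libraries spread, and that spread may be technical.

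JA is a plant hormone of defence, wounding and stress. Its active conjugate brings JAZ proteins to the receptor COI1, and their breakdown frees transcription factors such as MYC2 from co-repressors of the TOPLESS family. The title of the series names ECAP as an adaptor between JAZ repressors and the co-repressor TPR2 that restrains JA-responsive anthocyanin. Anthocyanins are red and purple flavonoid pigments. They are made from phenylalanine, which the shikimate pathway supplies, through the phenylpropanoid steps shared with lignin and then through flavonoid enzymes.

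Levels are in FPKM, fragments mapped to a gene scaled by its length and by the library's mapped fragments. Log2 changes were taken of FPKM + 1 and are given ± SE, and for genes near 0 FPKM they come out smaller than the true fold. The limma test took in 17835 of 22209 listed genes (80.3%), those that reached 1 FPKM in 3 or more libraries, and genes with a two-sided Benjamini-Hochberg adjusted p under 0.05 over all tested genes are called. Read depth is unknown from FPKM. A relative depth, read from FPKM ratios of barely expressed genes and set against 1 WT library, lay between 0.742 and 1.27 in all 18. Total FPKM was 853858 to 912834 in ecap-2 at 3 h, with 760383 to 801831 in ecap-2 at 0 h, 746650 to 765209 in WT at 3 h and 687996 to 728987 in WT at 0 h. The 100 most abundant genes held 29.6% to 31.4% of the total in ecap-2 at 3 h and 23.5% to 27.4% in every other group. The part of this difference in the results was not tested. Within groups the lowest correlation between libraries was 0.9839, between ecap-2 0 h replicates 1 and 3.

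AT3G58110, taken as ECAP from general knowledge, lies on chromosome 3, 21516635 to 21519862, plus strand of the TAIR10.1 assembly. It had 2.62, 2.34 and 2.72 FPKM in ecap-2 at 3 h and 2.43, 2.65 and 2.88 FPKM in ecap-2 at 0 h, against 12.3, 12.8 and 13.8 FPKM in WT at 3 h and 16.1, 14.4 and 14.8 FPKM in WT at 0 h. All ecap-2 libraries lay below all WT libraries. The exons of the gene overlap those of AT3G58100 in the annotation. The difference, ecap-2 minus WT, was -1.97 ± 0.074 at 3 h (limma adjusted p 3.12e-11) and -2.14 ± 0.074 at 0 h (adjusted p 8.59e-12). The response to JA did not pass the test of a difference between genotypes (interaction 0.16 ± 0.11, adjusted p 0.423).

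The interaction was called for 432 of 17835 genes (2.42%). It was higher in ecap-2 for 231 genes (1.30%) and lower for 201 (1.13%), and 3406 genes had an unadjusted p under 0.05. For comparison, 8065 genes (45.2%) responded to 3 h of JA in ecap-2, 23.1% of tested genes upward and 22.2% downward, and 7400 (41.5%) did in WT, 21.4% upward and 20.1% downward. The genotypes differed for 10252 genes (57.5%) at 3 h, with 28.8% higher and 28.6% lower in ecap-2, and for 7880 (44.2%) at 0 h, with 21.2% higher and 23.0% lower. Among the called interactions, 51 reached a 2-fold difference. By the sign of the fitted changes, whether or not these were called themselves, the genes fell into 3 patterns in each direction. Of the 231 higher genes, 101 had positive changes in both genotypes with the larger one in ecap-2, 88 had a positive change in ecap-2 and a negative one in WT, and 42 had negative changes in both with the smaller one in ecap-2. In 27 of the 231 both a rise in ecap-2 and a fall in WT were called. Of the 201 lower genes, 107 had a negative change in ecap-2 and a positive one in WT, 54 had positive changes in both and 40 had negative changes in both. In 30 of the 201 both a fall in ecap-2 and a rise in WT were called.

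The count depends on single libraries and on the scaling. Leaving out 1 library of the 4 groups gave 134 calls without ecap-2 3 h replicate 2, 138 without ecap-2 0 h replicate 2, 160 without ecap-2 3 h replicate 1, 237 without ecap-2 0 h replicate 3, and 190, 222 and 205 without WT 3 h replicates 1, 2 and 3. It gave 202 without WT 0 h replicate 2, 307 and 332 without WT 0 h replicates 1 and 3, 869 without ecap-2 3 h replicate 3 and 1264 without ecap-2 0 h replicate 1. In every one of these 12 fits 115 genes stayed called, 63 higher and 52 lower. When every library was scaled to a common total, the median interaction of all genes moved to -0.093 and 778 genes were called, 172 higher and 606 lower, so that 22.1% of calls were higher in place of 53.5%. Where an alternative fit tested a gene named here and ended its call, that fit is given with it. With a mean of at least 5 FPKM, AT1G53690, AT1G76620, FRO2, CYP82C4, PMAT2, AZI3 and AT4G12500 were not tested. Of the 432 genes, 80 kept their call in all 12 fits and in 14 other settings, 35 higher and 45 lower.

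**Figure D1:**
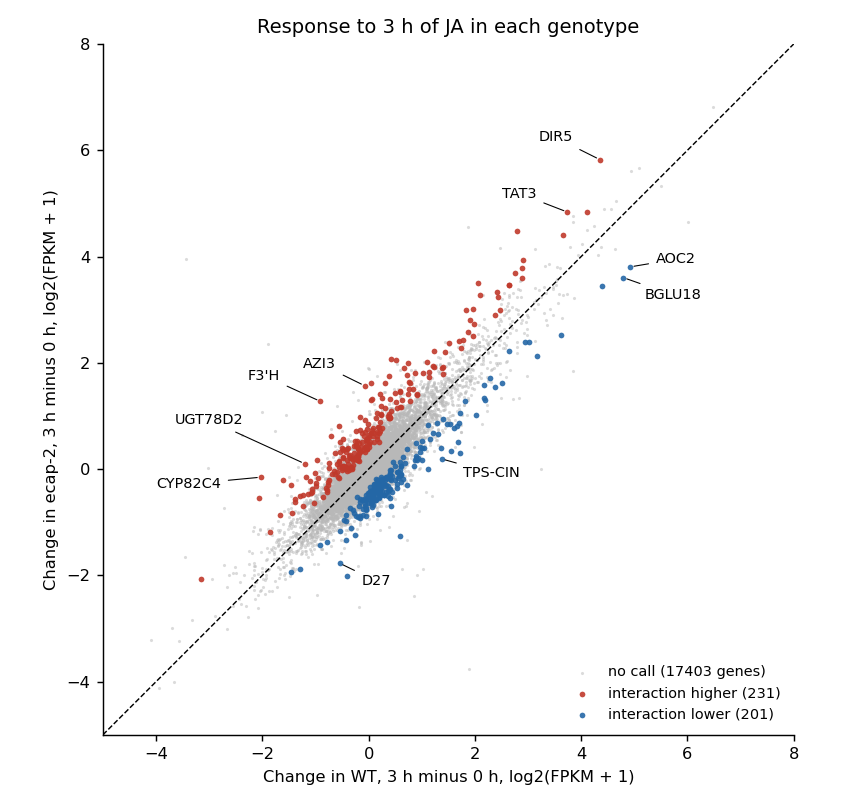
Each point is 1 of 17835 tested genes, with its change from 0 to 3 h on JA in WT on the x axis and in ecap-2 on the y axis, both on the log2(FPKM + 1) scale, and the dashed line marks equal changes. The 231 genes with a higher interaction (red) lie above the line and the 201 with a lower one (blue) below it, and F3'H stands at a change of 1.28 in ecap-2 and -0.91 in WT.

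The largest higher interaction among genes named here was that of F3'H (AT5G07990, TRANSPARENT TESTA 7), the hydroxylase that sets the pattern of quercetin and cyanidin. F3'H had 16.0, 19.3 and 12.5 FPKM in ecap-2 at 3 h and 5.92, 5.28 and 6.52 FPKM in ecap-2 at 0 h, against 6.06, 7.73 and 4.18 FPKM in WT at 3 h and 11.7, 12.5 and 11.4 FPKM in WT at 0 h. It rose in ecap-2 and fell in WT, and the groups crossed, with ecap-2 below WT at 0 h and above it at 3 h. The interaction was 2.19 ± 0.23 (adjusted p 0.000751), from a change of 1.28 ± 0.16 in ecap-2 (adjusted p 6.69e-06) and of -0.91 ± 0.16 in WT (adjusted p 0.000234). F3'H kept its call in all 26 alternative fits, with an adjusted p of at most 0.00517.

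Of the 10 tested early flavonoid genes, 5 were called, all higher, beside 1.30% of all tested genes, and 9 had a positive interaction. The list median was 0.68, beside 0.0052 for all genes tested, and it stayed between 0.57 and 0.83 over all settings. The count was 2 without ecap-2 3 h replicate 2, ecap-2 0 h replicate 2 or WT 3 h replicate 1, 3 without ecap-2 3 h replicate 1, ecap-2 0 h replicate 3, WT 3 h replicate 3 or any 1 WT 0 h library, and 6 or 7 without any of the other 3. CHS (chalcone synthase, AT5G13930), the first enzyme of flavonoid synthesis, had 211, 260.2 and 171 FPKM in ecap-2 at 3 h and 358, 271 and 315 FPKM in ecap-2 at 0 h, against 145, 168 and 128 FPKM in WT at 3 h and 374, 383 and 397 FPKM in WT at 0 h. CHS fell in both genotypes, and it fell by less in ecap-2 (interaction 0.83 ± 0.20, adjusted p 0.0451), with every ecap-2 library above every WT library at 3 h and below at 0 h. CHI, the chalcone isomerase, had 66.8, 79.4 and 63.6 FPKM in ecap-2 at 3 h and 96.9, 83.9 and 90.5 FPKM in ecap-2 at 0 h, against 56.5, 73.9 and 58.3 FPKM in WT at 3 h and 127, 136 and 133 FPKM in WT at 0 h. Its fall in ecap-2 was also the smaller one (interaction 0.70 ± 0.14, adjusted p 0.0173), from a lower level at 0 h. CHIL, an isomerase-like protein that aids chalcone synthase, had an interaction of 0.67 ± 0.16 (adjusted p 0.0399). C4H, cinnamate 4-hydroxylase, had one of 0.67 ± 0.11 (adjusted p 0.0081), and C4H kept its call in all 26 alternative fits. The call of CHS ended without ecap-2 3 h replicates 1 or 2, ecap-2 0 h replicates 2 or 3, WT 3 h replicates 1 or 3 or WT 0 h replicates 1, 2 or 3, each in turn, and with no filter, with plain empirical Bayes, with only the libraries compared, after a GC and length correction and after that correction with the block (adjusted p 0.0538 to 0.159). That of CHI ended without ecap-2 3 h replicate 2, ecap-2 0 h replicate 2 or WT 3 h replicate 1, each in turn (adjusted p 0.0511 to 0.0571). That of CHIL ended without ecap-2 3 h replicates 1 or 2, ecap-2 0 h replicates 2 or 3, WT 3 h replicates 1 or 3 or WT 0 h replicates 1, 2 or 3, each in turn, and with no filter, at a common total, with nuclear genes only, with plain empirical Bayes and with only the libraries compared (adjusted p 0.0534 to 0.113). F3H, 4CL3, PAL2 and PAL1 had interactions of 0.87, 0.91, 0.63 and 0.51 that were not called (adjusted p 0.0515, 0.103, 0.12 and 0.149). FLS1, the flavonol synthase that competes with the anthocyanin branch, stood apart from the list with -0.041 (adjusted p 0.929). Its own change was -2.20 in ecap-2 and -2.16 in WT, both called.

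Late anthocyanin genes code for the enzymes that turn dihydroflavonols into decorated anthocyanins. All 11 tested members had a positive interaction, and at least 10 had one in every alternative fit. In the fit reported here 7 had an unadjusted p under 0.05, the median was 0.69, and 1 gene, UGT78D2, was called. The count was 6 with a pseudocount of 5, 7 with library weights and 2 with a mean of at least 5 FPKM, after trimmed mean scaling or with only the libraries compared. It was 3 without ecap-2 3 h replicate 3, 2 without ecap-2 0 h replicate 1, WT 3 h replicate 2 or WT 0 h replicate 3, 1 without ecap-2 0 h replicate 3 and 0 without any 1 of the other 7 libraries. UGT78D2, a flavonoid 3-O-glucosyltransferase, had 103, 107 and 76.2 FPKM in ecap-2 at 3 h and 110.3, 84.1 and 73.0 FPKM in ecap-2 at 0 h, against 32.6, 38.2 and 27.5 FPKM in WT at 3 h and 93.6, 75.6 and 62.2 FPKM in WT at 0 h. It fell in WT and did not pass the test in ecap-2, with genotypes that overlapped at 0 h and were apart at 3 h (interaction 1.30 ± 0.29, adjusted p 0.0333). Its call ended without ecap-2 3 h replicates 1 or 2, ecap-2 0 h replicates 2 or 3, WT 3 h replicates 1 or 3 or WT 0 h replicates 1 or 2, each in turn (adjusted p 0.0648 to 0.0932). DFR, dihydroflavonol reductase, showed another course. It had 123, 135 and 109 FPKM in ecap-2 at 3 h and 29.3, 25.5 and 43.0 FPKM in ecap-2 at 0 h, against 15.8, 19.6 and 10.9 FPKM in WT at 3 h and 5.28, 5.57 and 6.26 FPKM in WT at 0 h. DFR was higher in ecap-2 at both times (difference 2.94 ± 0.28 at 3 h and 2.29 ± 0.28 at 0 h), rose in both genotypes, and its interaction of 0.64 ± 0.39 was not called (adjusted p 0.396). The same held for LDOX, UGT75C1, UGT79B1 and 5MAT, which rose in both genotypes and had interactions of 0.66, 0.99, 1.06 and 0.80 (adjusted p 0.379, 0.125, 0.0674 and 0.171). TT19, a glutathione transferase needed to bring anthocyanin to the vacuole, had 86.3, 88.1 and 65.4 FPKM in ecap-2 at 3 h and 25.2, 19.5 and 23.9 FPKM in ecap-2 at 0 h, against 12.2, 15.0 and 7.34 FPKM in WT at 3 h and 12.2, 10.1 and 7.53 FPKM in WT at 0 h. Its interaction of 1.59 ± 0.47 was not called (adjusted p 0.0896). 3AT1 and 3AT2, acyltransferases whose transcripts share 96.7% identity so that their reads may be split uncertainly, had interactions of 0.58 and 0.69 (adjusted p 0.116 and 0.0509). SCPL10 had 0.43 and BGLU10 0.0034 (adjusted p 0.387 and 0.993).

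The regulators of these genes gave no call, in a short list and with 2.42% of all tested genes called. Of 11 tested anthocyanin regulators, limma called 0 and 0 had an unadjusted p under 0.05, and their median interaction was 0.17. PAP1, the MYB activator of the late genes, had 18.16, 23.4 and 18.7 FPKM in ecap-2 at 3 h and 4.34, 4.19 and 2.48 FPKM in ecap-2 at 0 h, against 8.49, 12.7 and 3.83 FPKM in WT at 3 h and 1.13, 0.832 and 0.493 FPKM in WT at 0 h. PAP1 rose by 2.19 in ecap-2 and by 2.25 in WT, with an interaction of -0.056 ± 0.51 (adjusted p 0.968). WT at 0 h lay near 1 FPKM or below it. On this scale the rise in WT came out further under the true fold than that in ecap-2. TT8, its bHLH partner, had 6.07, 7.09 and 5.18 FPKM in ecap-2 at 3 h and 4.99, 3.61 and 4.23 FPKM in ecap-2 at 0 h, against 0.558, 0.884 and 0.602 FPKM in WT at 3 h and 0.627, 0.348 and 0.406 FPKM in WT at 0 h. TT8 was thus higher in ecap-2 at both times, by 2.08 and 1.85, with an interaction of 0.23 ± 0.23 (adjusted p 0.626). Among these libraries it reached 1 FPKM in ecap-2 alone. On this scale a level near 0 leaves little room for a change in WT. MYBL2, a MYB repressor of the pathway, rose by 1.75 in ecap-2 and 1.92 in WT (interaction -0.17 ± 0.45, adjusted p 0.881). PAP2, MYB113 and MYB114 were under 1 FPKM in all 12 libraries and were not tested.

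Promoters of called flavonoid and phenylpropanoid genes are shown because these genes share the sign of the interaction, though not the course of their levels. They were chosen after their values were seen. Each is the 250 bases before the annotated gene start in RefSeq's TAIR10.1 annotation, 5′ to 3′ on the gene's strand, and 1-based. F3'H lies at chr5:2560078-2560327, CHS at chr5:4488226-4488475 and CHIL at chr5:1563036-1563285, all on the plus strand, and HCT lies at chr5:19838236-19838485 and C3'H at chr2:17060653-17060902, both on the minus strand. Capitals mark the AC element ACCNACC, read on both strands, and the G-box CACGTG, which reads the same on both strands. The first is known as a binding site of MYB factors and the second of bHLH and bZIP factors.
F3'H: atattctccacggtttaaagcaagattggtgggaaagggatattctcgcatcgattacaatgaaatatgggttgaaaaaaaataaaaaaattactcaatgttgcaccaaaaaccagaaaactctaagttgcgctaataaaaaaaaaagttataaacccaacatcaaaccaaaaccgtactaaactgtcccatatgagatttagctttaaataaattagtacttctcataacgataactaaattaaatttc
CHS: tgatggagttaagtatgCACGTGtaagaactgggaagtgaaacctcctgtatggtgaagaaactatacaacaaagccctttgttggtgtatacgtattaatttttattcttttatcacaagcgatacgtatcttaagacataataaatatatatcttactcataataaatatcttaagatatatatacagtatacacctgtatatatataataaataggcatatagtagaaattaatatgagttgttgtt
CHIL: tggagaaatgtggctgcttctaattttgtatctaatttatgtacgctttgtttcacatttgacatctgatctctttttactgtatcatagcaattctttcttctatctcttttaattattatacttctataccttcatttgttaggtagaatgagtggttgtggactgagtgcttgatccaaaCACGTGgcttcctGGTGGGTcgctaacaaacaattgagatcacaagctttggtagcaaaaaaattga
HCT: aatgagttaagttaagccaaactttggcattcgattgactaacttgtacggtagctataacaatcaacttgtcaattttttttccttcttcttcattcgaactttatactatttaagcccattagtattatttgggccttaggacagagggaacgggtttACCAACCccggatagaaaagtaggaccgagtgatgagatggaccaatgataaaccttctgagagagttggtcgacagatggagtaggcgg
C3'H: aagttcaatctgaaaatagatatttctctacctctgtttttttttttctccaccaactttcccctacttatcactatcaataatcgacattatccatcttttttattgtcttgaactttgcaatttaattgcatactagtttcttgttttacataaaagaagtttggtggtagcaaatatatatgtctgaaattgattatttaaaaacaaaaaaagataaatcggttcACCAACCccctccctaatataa
CHS held 1 G-box, CHIL 1 of each motif, HCT and C3'H 1 AC element, and F3'H neither. Among the 13 called genes of the phenylpropanoid and early flavonoid lists, 4 promoters (30.8%) held an AC element and 2 (15.4%) a G-box. Over all 27 tested genes of these lists, called or not, 8 promoters (29.6%) held an AC element and 4 (14.8%) a G-box. Of all 37883 promoters of this length, 5.97% held an AC element and 5.396% a G-box, and of those of tested genes 6.53% and 7.49%. Over all called genes, AC elements stood in 10.4% of the promoters of the 231 higher genes and 2.99% of those of the 201 lower genes, and G-boxes in 8.23% and 9.95%. A match is a run of letters in this window and was not tested as a site.

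Upstream of the flavonoid branch, 9 of 18 tested genes of the shikimate and phenylalanine list and 9 of 20 of the phenylpropanoid and monolignol list were called higher, and none lower. Over all tested genes, 1.30% were called higher and 1.13% lower. The lists of these steps were drawn up after the values were seen. The phenylpropanoid list shares C4H and other members with the early flavonoid list, and together they hold 13 called genes. All 20 genes of the phenylpropanoid and monolignol list had a positive interaction, 17 with an unadjusted p under 0.05, and the median was 0.61. Between 6 and 12 were called when single libraries were left out, and over all settings at least 18 were positive and the median stayed between 0.50 and 0.69. 4CL1 (4-coumarate:CoA ligase, AT1G51680), which activates coumarate for both lignin and flavonoids, had 218, 215 and 167 FPKM in ecap-2 at 3 h and 172, 156 and 153 FPKM in ecap-2 at 0 h, against 132, 129.7 and 127 FPKM in WT at 3 h and 220.4, 217 and 173 FPKM in WT at 0 h. 4CL1 rose in ecap-2 and fell in WT (interaction 0.95 ± 0.16, adjusted p 0.00771). HCT, which moves coumarate onto shikimate on the way to lignin, had 316, 303 and 253 FPKM in ecap-2 at 3 h and 256, 222 and 207 FPKM in ecap-2 at 0 h, against 156, 166 and 153 FPKM in WT at 3 h and 245, 219.8 and 205 FPKM in WT at 0 h. The 0 h libraries of the genotypes overlapped and the 3 h libraries did not (interaction 0.84 ± 0.14, adjusted p 0.00672). CSE, caffeoyl shikimate esterase, had 125, 119 and 108 FPKM in ecap-2 at 3 h and 80.9, 77.7 and 84.0 FPKM in ecap-2 at 0 h, against 86.2, 88.8 and 90.9 FPKM in WT at 3 h and 106, 101 and 101 FPKM in WT at 0 h. CSE also rose in ecap-2 and fell in WT (interaction 0.74 ± 0.10, adjusted p 0.00326). UGT72E2, which glucosylates monolignols, fell in both and by less in ecap-2 (interaction 0.78 ± 0.15, adjusted p 0.0118). C3'H, which hydroxylates the coumaroyl ring, had an interaction of 0.72 ± 0.15 (adjusted p 0.0229). Over the 26 alternative fits, 4CL1, HCT and CSE kept their calls. The call of UGT72E2 ended after a GC and length correction (adjusted p 0.0546). That of C3'H ended without ecap-2 3 h replicates 1 or 2, ecap-2 0 h replicates 2 or 3, WT 3 h replicates 1 or 3 or WT 0 h replicate 2, each in turn (adjusted p 0.0519 to 0.0704).

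In the shikimate and phenylalanine list, 15 of 18 tested genes had a positive interaction, and the median was 0.38. The median stayed between 0.27 and 0.42 over all settings. The count of calls was 3 without ecap-2 3 h replicate 2 or WT 3 h replicate 3, 4 without ecap-2 3 h replicate 1 or ecap-2 0 h replicate 2, 5 without ecap-2 0 h replicate 3, 6 at a common total and 6 to 11 without any 1 of the other libraries. DHS1, which makes the first committed compound of the pathway, had 286, 294 and 239 FPKM in ecap-2 at 3 h and 60.1, 47.1 and 48.2 FPKM in ecap-2 at 0 h, against 189, 207 and 179 FPKM in WT at 3 h and 74.4, 65.0 and 60.5 FPKM in WT at 0 h. DHS1 rose in both genotypes and more in ecap-2, where it started lower (interaction 0.87 ± 0.15, adjusted p 0.00731). PPA-AT, the aminotransferase that makes arogenate, had 54.6, 57.9 and 50.0 FPKM in ecap-2 at 3 h and 41.0, 38.7 and 38.0 FPKM in ecap-2 at 0 h, against 40.2, 39.9 and 36.1 FPKM in WT at 3 h and 45.7, 46.6 and 45.1 FPKM in WT at 0 h. It rose in ecap-2 and fell in WT (interaction 0.69 ± 0.10, adjusted p 0.00326). DHD-SDH, a bifunctional enzyme of the middle steps, had an interaction of 0.39 ± 0.07 (adjusted p 0.0102) and EPSPS2, which makes the chorismate precursor, one of 0.52 ± 0.11 (adjusted p 0.0177). DHS1 and PPA-AT kept their calls in all 26 fits. The call of DHD-SDH ended at a common total and with nuclear genes only (adjusted p 0.0634 to 0.0665). That of EPSPS2 ended without ecap-2 3 h replicates 1 or 2 or WT 3 h replicate 3, each in turn (adjusted p 0.0511 to 0.058). Members without a call included CM3, a chorismate mutase, with -0.40 (adjusted p 0.328), and the arogenate dehydratase ADT1 with -0.12 (adjusted p 0.593).

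**Figure D2:**
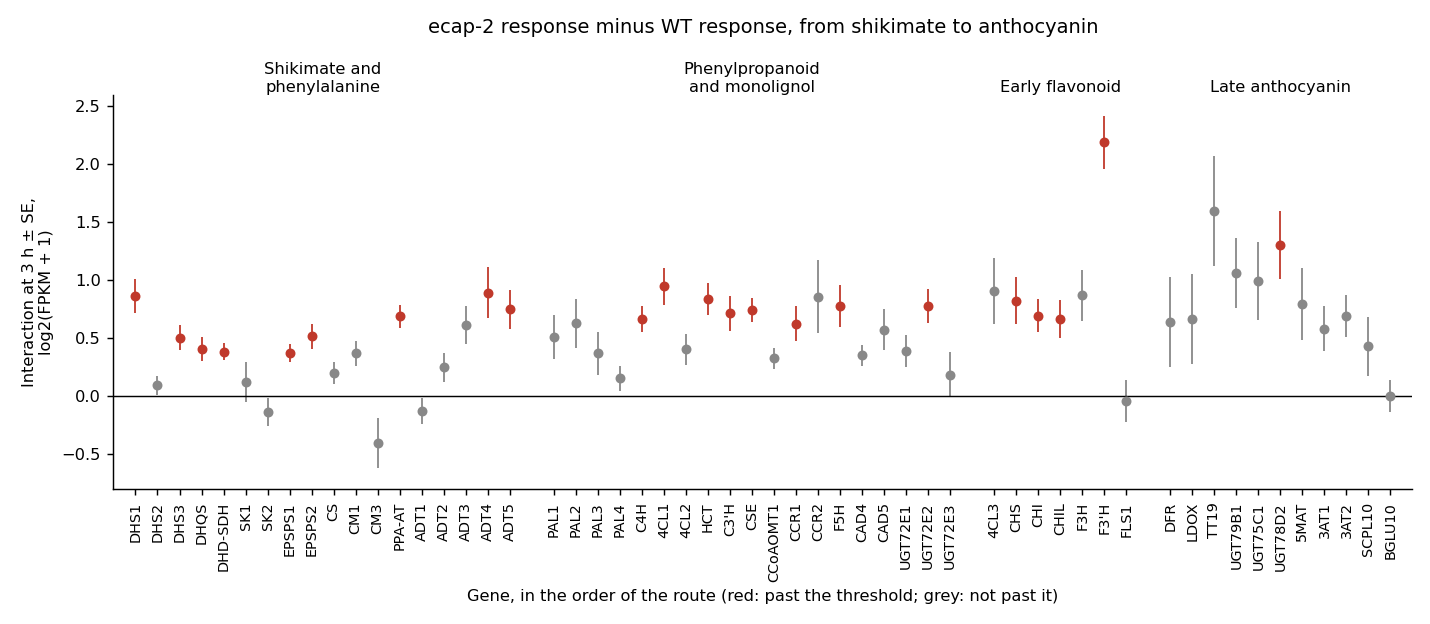
Points are the interaction at 3 h (y axis, log2(FPKM + 1) scale) of the tested genes shown, from the shikimate pathway to anthocyanin, in route order from left to right, with bars of ± SE, red where called and grey where not. All genes shown in the phenylpropanoid block and all but FLS1 of the early flavonoid block lie above 0, with F3'H highest at 2.19.

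**Figure D3:**
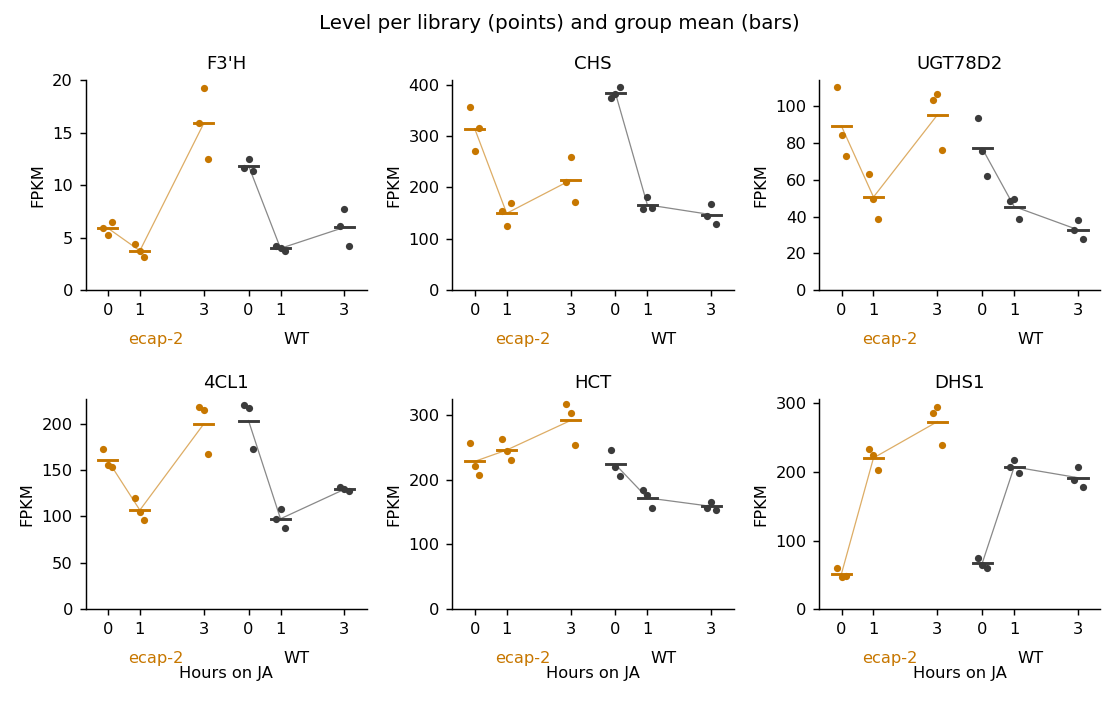
Each panel gives the FPKM (y axis) of 1 gene in every library (points) with the group mean (bars) after 0, 1 and 3 h on JA (x axis), ecap-2 at the left and WT at the right. F3'H reaches 16.0, 19.3 and 12.5 FPKM in the ecap-2 libraries at 3 h, against 6.06, 7.73 and 4.18 FPKM in WT.

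The methionine cycle supplies the methyl groups that lignin and other methylations use. Of 13 tested members of a list drawn up after the values were seen, 3 were called higher and 0 lower. Over all tested genes, 1.30% were called higher and 1.13% lower. The list median of 0.30 stayed between 0.19 and 0.38 over all settings. The count was 6 without ecap-2 3 h replicate 3 or ecap-2 0 h replicate 1 and 2 to 4 without any other library. The members called were MS2, SAHH1 and MS1. MS2 (AT3G03780), a methionine synthase, had 239, 261 and 199 FPKM in ecap-2 at 3 h and 177, 146 and 145 FPKM in ecap-2 at 0 h, against 262, 301 and 233 FPKM in WT at 3 h and 384, 363 and 353 FPKM in WT at 0 h. It rose in ecap-2 and fell in WT, which left the 3 h libraries of the genotypes overlapping after a gap at 0 h (interaction 1.04 ± 0.17, adjusted p 0.00731). SAHH1, which clears the by-product of methylation, had 1031, 1055 and 981 FPKM in ecap-2 at 3 h and 1209, 1059 and 998 FPKM in ecap-2 at 0 h, against 711, 731 and 671 FPKM in WT at 3 h and 1138, 1024 and 1124 FPKM in WT at 0 h. SAHH1 fell in WT and did not pass the test in ecap-2 (interaction 0.55 ± 0.10, adjusted p 0.0105). MS1, another methionine synthase, had an interaction of 0.54 ± 0.12 (adjusted p 0.0241), and its call ended without ecap-2 3 h replicates 1 or 2, ecap-2 0 h replicates 2 or 3, WT 3 h replicates 1 or 3 or WT 0 h replicate 2, each in turn, and after quantile normalization (adjusted p 0.0521 to 0.0751). MS2 kept its call in all 26 fits, and the call of SAHH1 ended after a GC and length correction and after that correction with the block (adjusted p 0.0919 to 0.122).

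The core of JA signalling gave no call in the fit reported here. With 2.42% of all tested genes called, few calls would fall in lists of this size. Of the 11 tested JAZ repressors, limma called 0 and 1 had an unadjusted p under 0.05, with a median of 0.0064 on the log2 scale. JAZ1 had 262, 272 and 248 FPKM in ecap-2 at 3 h and 27.9, 26.2 and 25.6 FPKM in ecap-2 at 0 h, against 259, 274 and 249 FPKM in WT at 3 h and 32.8, 26.3 and 22.0 FPKM in WT at 0 h. The genotypes overlapped at 0 h and at 3 h, with a rise of 3.25 in ecap-2 and 3.24 in WT (interaction 0.0064 ± 0.14, adjusted p 0.987). JAZ10, a JAZ that accumulates strongly after wounding, rose by 5.04 in ecap-2 and 4.65 in WT (interaction 0.39 ± 0.22, adjusted p 0.36). JAZ7 was the member with the unadjusted p under 0.05. It had 1.23, 1.99 and 2.93 FPKM in ecap-2 at 3 h and 0, 0.0968 and 0.499 FPKM in ecap-2 at 0 h, against 7.86, 9.98 and 10.3 FPKM in WT at 3 h and 0.564, 0.255 and 0.549 FPKM in WT at 0 h. All ecap-2 libraries of JAZ7 at 3 h lay below all WT ones, and the interaction of -1.50 ± 0.47 was not called (adjusted p 0.104). In other fits, 1 JAZ gene was called lower with only the libraries compared, with the replicate block, and with that block beside the GC and length correction. With library weights 1 JAZ gene was called higher and 1 lower. JAZ2, JAZ3, JAZ4, JAZ8, JAZ9, JAZ11, JAZ12 and JAZ13 had interactions from -0.38 (JAZ13) to 0.43 (JAZ8) and none was called. Among the co-repressors and adaptors 0 of 7 were called by limma and 0 had an unadjusted p under 0.05. TPR2, named in the series title, had 22.7, 23.3 and 24.4 FPKM in ecap-2 at 3 h and 27.5, 26.3 and 27.7 FPKM in ecap-2 at 0 h, against 24.1, 21.7 and 22.9 FPKM in WT at 3 h and 28.8, 31.7 and 30.3 FPKM in WT at 0 h. It fell slightly in both genotypes (interaction 0.19 ± 0.11, adjusted p 0.374), and TPL and NINJA had 0.16 and 0.028 (adjusted p 0.391 and 0.918). With library weights limma called TPL higher (adjusted p 0.046). Of 10 tested genes of the JA receptor and its transcription factors, limma called 0 and 1 had an unadjusted p under 0.05, with a median of -0.023. With library weights 1 gene of this list was called lower. MYC2, the main JA transcription factor, had 70.3, 78.2 and 67.1 FPKM in ecap-2 at 3 h and 19.6, 17.04 and 15.1 FPKM in ecap-2 at 0 h, against 46.4, 49.3 and 45.5 FPKM in WT at 3 h and 14.9, 13.2 and 9.82 FPKM in WT at 0 h (interaction 0.17 ± 0.18, adjusted p 0.661). MYC2 rose in both genotypes, and its ecap-2 libraries lay above the WT libraries at both times.

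JA synthesis and turnover held calls in both directions. AOC2 (AT3G25770), an allene oxide cyclase of JA synthesis, had 416, 404 and 355 FPKM in ecap-2 at 3 h and 23.8, 22.6 and 36.5 FPKM in ecap-2 at 0 h, against 375, 428 and 379 FPKM in WT at 3 h and 10.7, 12.4 and 12.9 FPKM in WT at 0 h. The genotypes overlapped at 3 h, and ecap-2 was above WT at 0 h, which gave an interaction of -1.12 ± 0.24 (adjusted p 0.0237). LOX2, the lipoxygenase before it, had 685, 647 and 534 FPKM in ecap-2 at 3 h and 23.2, 17.37 and 32.8 FPKM in ecap-2 at 0 h, against 437, 509 and 337 FPKM in WT at 3 h and 6.22, 5.89 and 4.68 FPKM in WT at 0 h (interaction -1.36 ± 0.35, adjusted p 0.0568). Its ecap-2 libraries lay above WT at both times, by more at 0 h, without a call of the interaction. AOC3, another allene oxide cyclase, had an interaction of 0.66 ± 0.16 (adjusted p 0.035). Of 12 tested genes of JA synthesis, 1 was called higher and 1 lower, beside 1.30% and 1.13% of all tested genes. The list median was 0.038. CYP94B1, which hydroxylates the active JA conjugate, had 66.0, 66.7 and 56.2 FPKM in ecap-2 at 3 h and 3.53, 4.56 and 3.78 FPKM in ecap-2 at 0 h, against 79.0, 83.9 and 86.0 FPKM in WT at 3 h and 9.63, 11.7 and 13.2 FPKM in WT at 0 h. CYP94B1 was lower in ecap-2 at both times and by less at 3 h (interaction 0.94 ± 0.15, adjusted p 0.00531). It was the only one of 9 tested turnover genes to be called, beside 2.42% of all tested genes, and the list median was 0.39. TAT3, a tyrosine aminotransferase used as a JA marker, had 58.7, 69.2 and 57.4 FPKM in ecap-2 at 3 h and 1.34, 0.763 and 1.54 FPKM in ecap-2 at 0 h, against 27.3, 26.1 and 26.2 FPKM in WT at 3 h and 1.39, 1.43 and 0.512 FPKM in WT at 0 h. The genotypes overlapped at 0 h, and at 3 h all ecap-2 libraries lay above WT (interaction 1.101 ± 0.22, adjusted p 0.018). It was called alone among 6 tested marker genes, and VSP2, the storage protein marker, had 0.34 (adjusted p 0.869). CYP94B1 kept its call in all 26 fits. The call of AOC2 ended without ecap-2 3 h replicates 1 or 2, WT 3 h replicate 2 or WT 0 h replicates 1 or 2, each in turn (adjusted p 0.0507 to 0.0606). That of AOC3 ended without ecap-2 3 h replicates 1 or 2, ecap-2 0 h replicate 2, WT 3 h replicates 1 or 2 or WT 0 h replicates 1 or 2, each in turn, and at a common total, after quantile normalization, with nuclear genes only and with only the libraries compared (adjusted p 0.0522 to 0.102). That of TAT3 ended without ecap-2 3 h replicate 2 or ecap-2 0 h replicate 2, each in turn, and with a pseudocount of 0.1 (adjusted p 0.0515 to 0.188). Among turnover genes without a call, chosen after their values were seen, CYP94B3 and CYP94C1 of the same oxidation route had 0.74 and 0.55, and the sulfotransferase ST2A had -0.64 (adjusted p 0.087, 0.0934 and 0.087).

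**Figure D4:**
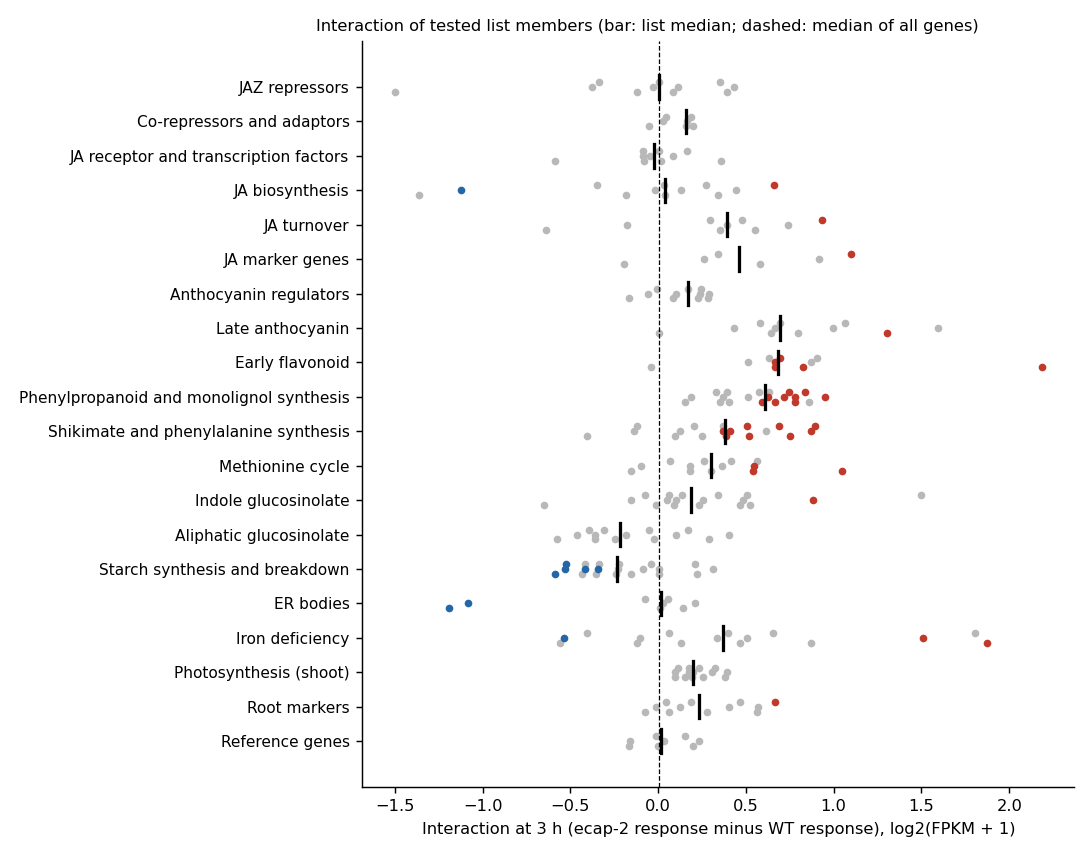
Each point is the interaction at 3 h (x axis, ecap-2 response minus WT response, log2(FPKM + 1) scale) of a tested member of the gene list named at the left, red where called higher, blue where called lower and grey where not called, with the list median as a bar and the median of all genes dashed. Among the lists shown, medians run from -0.23 in the starch list to 0.69 in the late anthocyanin list, and the JAZ repressors centre on 0.0064.

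Genes with a lower interaction included parts of the ER body system and of starch metabolism. ER bodies are compartments of Brassicaceae cells that store beta-glucosidases and that JA induces in shoots. BGLU18 (AT1G52400), their leaf beta-glucosidase, had 143, 119 and 118 FPKM in ecap-2 at 3 h and 7.84, 10.1 and 10.7 FPKM in ecap-2 at 0 h, against 216, 237 and 179.7 FPKM in WT at 3 h and 6.76, 6.15 and 6.86 FPKM in WT at 0 h. Every ecap-2 library was above every WT library at 0 h and below every WT library at 3 h (interaction -1.19 ± 0.22, adjusted p 0.0105). Its neighbour TSA1 (AT1G52410), an ER body protein related to NAI2, had 15.1, 16.2 and 14.5 FPKM in ecap-2 at 3 h and 1.42, 1.58 and 2.55 FPKM in ecap-2 at 0 h, against 29.2, 31.5 and 24.7 FPKM in WT at 3 h and 1.57, 1.31 and 1.31 FPKM in WT at 0 h. It rose in both genotypes and by less in ecap-2 (interaction -1.08 ± 0.20, adjusted p 0.0118). Both kept their calls in all 26 fits. The other 6 genes of this list, drawn up after the values were seen, were not called, among them NAI1, the bHLH regulator of ER bodies, with 0.054 (adjusted p 0.901) and the root beta-glucosidase PYK10 with -0.077 (adjusted p 0.724).

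Starch is made and broken down in the plastid. Of 20 tested genes of a starch list drawn up after the values were seen, 5 were called lower and 0 higher. Over all tested genes, 1.13% were called lower and 1.30% higher. The list median of -0.23 stayed between -0.35 and -0.18 over all settings. GWD1 (glucan water dikinase, AT1G10760), which starts starch breakdown by phosphorylating the granule, had 34.03, 35.5 and 34.4 FPKM in ecap-2 at 3 h and 14.3, 13.3 and 13.7 FPKM in ecap-2 at 0 h, against 49.7, 53.3 and 49.5 FPKM in WT at 3 h and 13.7, 14.5 and 13.3 FPKM in WT at 0 h. The genotypes overlapped at 0 h, both rose, and WT rose more (interaction -0.53 ± 0.09, adjusted p 0.00771). PHS1, the plastid starch phosphorylase, had 76.7, 73.9 and 74.8 FPKM in ecap-2 at 3 h and 15.0, 14.5 and 16.6 FPKM in ecap-2 at 0 h, against 93.0, 92.5 and 94.9 FPKM in WT at 3 h and 13.7, 14.04 and 14.7 FPKM in WT at 0 h. PHS1 had the same course (interaction -0.42 ± 0.084, adjusted p 0.0172), though its annotation overlaps a neighbouring gene. SS4, the synthase that starts granules, had an interaction of -0.53 ± 0.10 (adjusted p 0.0103) and ISA2, a subunit of the debranching enzyme, -0.59 ± 0.10 (adjusted p 0.00813). GWD1, SS4 and ISA2 kept their calls in all 26 fits, and that of PHS1 ended without ecap-2 3 h replicate 2 (adjusted p 0.054). ISA1, the partner of ISA2, had -0.34 ± 0.08 (adjusted p 0.0352), and its call ended without ecap-2 3 h replicates 1 or 2, ecap-2 0 h replicates 2 or 3, WT 3 h replicates 1, 2 or 3 or WT 0 h replicates 1, 2 or 3, each in turn, and with only the libraries compared (adjusted p 0.0545 to 0.0972). BAM1 and BAM3, beta-amylases of starch breakdown, fell in both genotypes and had interactions of 0.21 and 0.22 (adjusted p 0.324 and 0.62). Without 1 library the count of calls ran from 3 without ecap-2 3 h replicate 2 to 7 without ecap-2 0 h replicate 1, and it was 10 at a common total.

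D27 (AT1G03055), a carotenoid isomerase at the start of strigolactone synthesis, had 1.86, 2.25 and 1.30 FPKM in ecap-2 at 3 h and 7.20, 9.33 and 9.07 FPKM in ecap-2 at 0 h, against 7.90, 7.17 and 6.89 FPKM in WT at 3 h and 10.2, 11.1 and 12.2 FPKM in WT at 0 h. It fell in both genotypes and further in ecap-2 (interaction -1.23 ± 0.19, adjusted p 0.00498). SOFL1, of a family tied to cytokinin levels, had 8.17, 8.52 and 8.45 FPKM in ecap-2 at 3 h and 11.9, 10.5 and 9.35 FPKM in ecap-2 at 0 h, against 14.02, 13.0 and 13.3 FPKM in WT at 3 h and 10.5, 6.71 and 6.55 FPKM in WT at 0 h. SOFL1 rose in WT and did not pass the test in ecap-2 (interaction -1.02 ± 0.18, adjusted p 0.00942), and its annotation overlaps another gene. AT5G57000, annotated as a DEAD-box helicase, had 2.91, 2.27 and 3.13 FPKM in ecap-2 at 3 h and 4.28, 6.50 and 6.66 FPKM in ecap-2 at 0 h, against 8.13, 7.38 and 8.96 FPKM in WT at 3 h and 6.85, 6.71 and 7.57 FPKM in WT at 0 h. It fell in ecap-2 and did not pass the test in WT (interaction -1.03 ± 0.19, adjusted p 0.0122). AT1G76620, of unknown function, rose by 0.50 in ecap-2 and 1.68 in WT (interaction -1.18 ± 0.19, adjusted p 0.00641). D27, SOFL1 and AT5G57000 kept their calls in all 26 fits, and that of AT1G76620 ended with a pseudocount of 0.1 (adjusted p 0.0508). The most negative interaction under the naming rule was that of AT1G53690, annotated as a small RNA polymerase subunit, with -1.86 ± 0.31 (adjusted p 0.00771). It had 1.43, 2.27 and 1.06 FPKM in ecap-2 at 3 h and 2.87, 6.67 and 6.64 FPKM in ecap-2 at 0 h, against 1.71, 1.46 and 2.33 FPKM in WT at 3 h and 0.579, 1.09 and 0.95 FPKM in WT at 0 h.

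**Figure D5:**
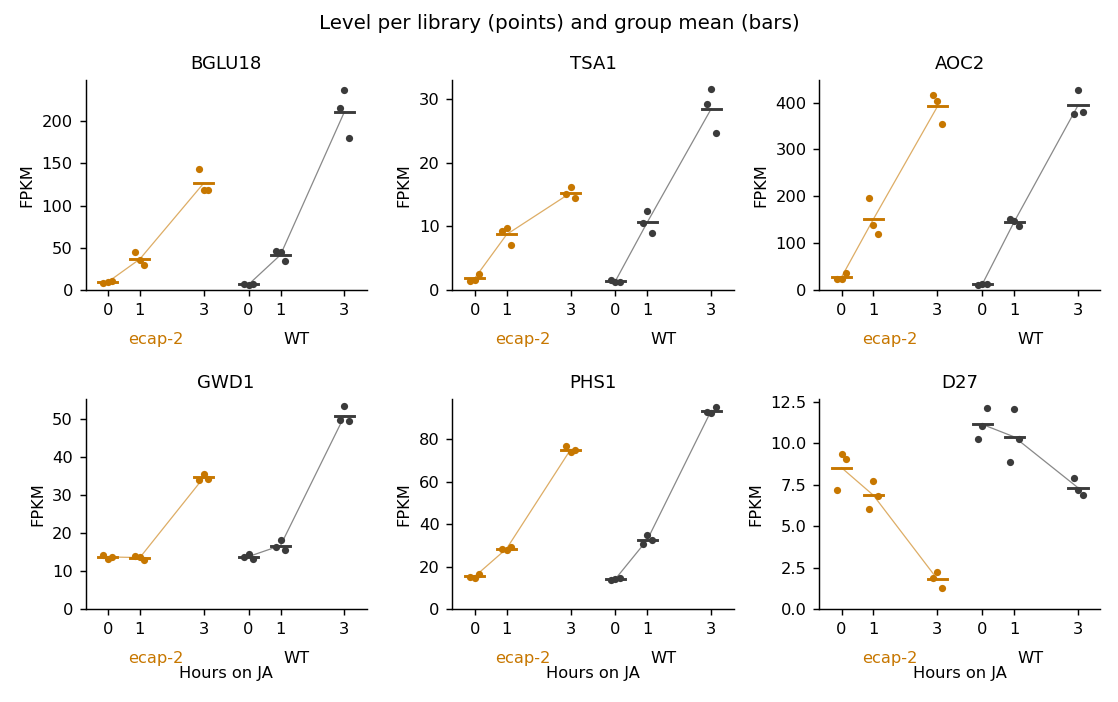
Each panel gives the FPKM (y axis) of 1 gene with a lower interaction in every library (points) with the group mean (bars) after 0, 1 and 3 h on JA (x axis), ecap-2 at the left and WT at the right. GWD1 starts at 14.3, 13.3 and 13.7 FPKM in ecap-2 and 13.7, 14.5 and 13.3 FPKM in WT and ends at 34.03, 35.5 and 34.4 FPKM in ecap-2 and 49.7, 53.3 and 49.5 FPKM in WT.

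Some of the largest higher interactions came from genes outside the route and the hormone lists. DIR5 (AT1G64160), a dirigent protein of a family that steers the coupling of monolignols, had 63.1, 65.9 and 47.2 FPKM in ecap-2 at 3 h and 0.0496, 0.0391 and 0.0404 FPKM in ecap-2 at 0 h, against 20.3, 21.6 and 16.7 FPKM in WT at 3 h, and it was listed at 0 in all WT libraries at 0 h. The 3 h libraries of ecap-2 all lay above those of WT (interaction 1.47 ± 0.23, adjusted p 0.00641). AAE12, an acyl-activating enzyme, had 18.6, 25.2 and 14.8 FPKM in ecap-2 at 3 h and 0.841, 0.678 and 0.79 FPKM in ecap-2 at 0 h, against 4.95, 5.78 and 3.68 FPKM in WT at 3 h and 0.526, 0.306 and 0.297 FPKM in WT at 0 h. Its interaction was 1.44 ± 0.25 (adjusted p 0.00865), but its transcript is 92.1% identical to that of AT1G65880 over 94.9% of its length, so the split of reads between them is uncertain. AT1G64590, a Rossmann-fold protein, had a change of 0.81 in ecap-2 and -0.56 in WT, both called (interaction 1.37 ± 0.21, adjusted p 0.00498). PMAT2, a malonyltransferase of phenolic glucosides, had a change of 0.63 in ecap-2 and -0.71 in WT, both called (interaction 1.34 ± 0.27, adjusted p 0.018). DIR5 and AT1G64590 kept their calls in all 26 fits. The call of AAE12 ended with a pseudocount of 0.1 (adjusted p 0.0804). That of PMAT2 ended without ecap-2 3 h replicate 2, and with only the libraries compared (adjusted p 0.0535 to 0.0539).

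Of 6 members of a tandem cluster of proline-rich lipid-transfer protein genes on chromosome 4, listed after their values were seen, 2 were called higher, AZI3 and AT4G12500. Over all tested genes 1.30% were called higher. No member of the cluster was called with a pseudocount of 0.1 or, among the 4 then tested, with a mean of at least 5 FPKM. AZI3 had 7.22, 11.2 and 7.61 FPKM in ecap-2 at 3 h and 3.08, 2.03 and 1.67 FPKM in ecap-2 at 0 h, against 0, 0.067 and 0 FPKM in WT at 3 h and 0.25, 0 and 0 FPKM in WT at 0 h. AT4G12500 had 6.91, 7.51 and 8.41 FPKM in ecap-2 at 3 h and 1.39, 0.672 and 1.15 FPKM in ecap-2 at 0 h, against 0.471, 0.623 and 0.47 FPKM in WT at 3 h and 0.111, 0 and 0.31 FPKM in WT at 0 h. In both genes every ecap-2 library lay above every WT library of the same time, with interactions of 1.65 ± 0.24 (adjusted p 0.00432) and 1.65 ± 0.23 (adjusted p 0.00326). The more abundant AZI1 and EARLI1, lipid-transfer proteins of systemic defence and cold, were higher in ecap-2 by 3.04 and 3.102 at 3 h and by 2.84 and 2.73 at 0 h, with interactions of 0.21 and 0.37 that were not called (adjusted p 0.564 and 0.364). Both called genes were at under 1 FPKM in all WT libraries and reached 1 FPKM through ecap-2 alone, and on this scale a level near 0 leaves little room for a change in WT. The call of AZI3 ended with a pseudocount of 0.1 (adjusted p 0.0841), and that of AT4G12500 ended with a pseudocount of 0.1 (adjusted p 0.305). The exons of AZI3 and EARLI1 overlap those of neighbours in the annotation.

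Of 16 tested iron deficiency genes, 2 were called higher and 1 lower, beside 1.30% and 1.13% of all tested genes. The list median was 0.37. No member was called higher with a pseudocount of 0.1 or, among the 14 then tested, with a mean of at least 5 FPKM. FRO2, the ferric chelate reductase of the root surface, had 0.0434, 0.207 and 0.18 FPKM in ecap-2 at 3 h and 0.792, 0.481 and 0.762 FPKM in ecap-2 at 0 h, against 1.499, 0.848 and 0.815 FPKM in WT at 3 h and 12.4, 6.44 and 5.09 FPKM in WT at 0 h. It fell in both genotypes, from a low level in ecap-2, and on this scale a level near 0 cannot fall far (interaction 1.51 ± 0.30, adjusted p 0.0156). CYP82C4, which hydroxylates a coumarin siderophore, was likewise under 0.3 FPKM in every ecap-2 library at 0 h, against 8.57, 3.49 and 3.43 FPKM in WT (interaction 1.88 ± 0.35, adjusted p 0.0105). Its transcript is 91.7% identical to that of AT4G31950 over 65.5% of its length. PYE, a bHLH regulator of iron homeostasis, went the other way. It had 81.0, 81.3 and 92.6 FPKM in ecap-2 at 3 h and 122, 124 and 113 FPKM in ecap-2 at 0 h, against 165, 157 and 162 FPKM in WT at 3 h and 159.7, 151 and 159 FPKM in WT at 0 h. PYE fell in ecap-2 and did not pass the test in WT (interaction -0.53 ± 0.09, adjusted p 0.00731), and it kept its call in all 26 fits. The call of FRO2 ended without ecap-2 3 h replicate 2 or ecap-2 0 h replicate 2, each in turn, and with a pseudocount of 0.1 (adjusted p 0.0504 to 0.321). That of CYP82C4 ended with a pseudocount of 0.1 (adjusted p 0.0775).

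At 1 h the genotypes differed in far fewer responses. The interaction at 1 h was called for 56 genes (0.314%), 30 (0.168%) higher and 26 (0.146%) lower. It shares its 0 h libraries with the one at 3 h, so values are given side by side. F3'H had an interaction of 2.19 at 3 h and 0.83 at 1 h, CHS 0.83 and 0.14, UGT78D2 1.30 and -0.072, and HCT 0.84 and 0.49. A direct test asked whether the shift from 1 to 3 h differed between the genotypes, and 575 genes (3.22%) were called, 1.44% of tested genes higher in ecap-2 and 1.79% lower. F3'H passed it (1.36 ± 0.23, adjusted p 0.0141), with 16.0, 19.3 and 12.5 FPKM at 3 h and 4.36, 3.73 and 3.15 FPKM at 1 h in ecap-2, against 6.06, 7.73 and 4.18 FPKM at 3 h and 4.20, 3.98 and 3.75 FPKM at 1 h in WT. At 1 h the genotypes overlapped, and at 3 h all ecap-2 libraries lay above WT. UGT78D2 passed as well (1.38 ± 0.29, adjusted p 0.0281), as did D27 (-1.05 ± 0.19, adjusted p 0.0155), SS4 (-0.56 ± 0.10, adjusted p 0.0141) and PYE (-0.54 ± 0.09, adjusted p 0.0141). CHS, HCT and DHS1 did not (0.69, 0.35 and 0.42, adjusted p 0.072, 0.148 and 0.108). CYP94B1 and CSE were already called at 1 h, with interactions of 0.98 ± 0.15 (adjusted p 0.00821) and 0.67 ± 0.10 (adjusted p 0.0109), and AOC2 had -1.08 ± 0.24 at 1 h (adjusted p 0.0694).

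Summed levels of organ markers in whole seedlings differed between the groups. The summed FPKM of 14 listed photosynthesis genes, which mark the shoot, was 67926 to 74504 in ecap-2 at 3 h with 56260 to 63664 in ecap-2 at 0 h, against 52195 to 53909 in WT at 3 h and 44383 to 51087 in WT at 0 h, and none of the 14 was at 0. The sum of 13 root markers was 4691 to 5335 in ecap-2 at 3 h with 2961 to 3197 in ecap-2 at 0 h, against 4072 to 4254 in WT at 3 h and 2283 to 2521 in WT at 0 h. A sum weighs the most abundant genes most. Over 3 h the median log2 change of the 12 tested root markers was 0.15 in ecap-2 and -0.30 in WT. Of the tested members, limma called 0 of 14 photosynthesis genes, with 5 at an unadjusted p under 0.05. All 14 had a positive interaction, with a median of 0.20, while after quantile normalization 6 did and the median was -0.020. Of 12 root markers 10 had a positive interaction, with a median of 0.23, and 1 was called, EXPA18, a root hair expansin (interaction 0.67 ± 0.14, adjusted p 0.0193). The call of EXPA18 ended without ecap-2 3 h replicates 1 or 2, ecap-2 0 h replicate 2 or WT 3 h replicate 2, each in turn (adjusted p 0.0536 to 0.0643). Both sums, as deposited, were higher in ecap-2 at both times, as total FPKM was, and their part in the results was not tested. In bulk samples fewer cells of a type and less RNA per cell cannot be told apart. Of 8 reference genes 0 were called by limma and 0 had an unadjusted p under 0.05, with a median of 0.019. Indole glucosinolate genes had 1 call of 18, CYP81F3, which hydroxylates the indole ring (0.88 ± 0.16, adjusted p 0.0103, kept in all 26 fits). Aliphatic glucosinolate genes had 0 calls of 14 with 4 at an unadjusted p under 0.05 and a median of -0.22, and heat shock genes 0 of 6 with 5 at an unadjusted p under 0.05 and a median of 0.78. The dark and starvation list had 1 call of 6, BAM5, a beta-amylase of the cytosol (1.68 ± 0.40, adjusted p 0.0444), which reversed to -0.45 with a pseudocount of 0.1 and whose call ended without ecap-2 3 h replicates 1 or 2, ecap-2 0 h replicates 2 or 3, WT 3 h replicates 1 or 3 or WT 0 h replicates 1, 2 or 3, each in turn, and at a common total and with nuclear genes only (adjusted p 0.0566 to 0.115). BAM5 had 157, 144 and 86.2 FPKM in ecap-2 at 3 h and 4.07, 4.84 and 5.13 FPKM in ecap-2 at 0 h, against 6.73, 8.82 and 4.70 FPKM in WT at 3 h and 0.0967, 0.104 and 0.0585 FPKM in WT at 0 h. The lists of tryptophan synthesis, sulfate assimilation, the clock, light, touch, salicylic acid, auxin, cell cycle and seed storage held 0 calls by limma and 0 to 3 genes each with an unadjusted p under 0.05. Over all tested genes 2.42% were called, so 0 calls set none of these short lists apart. Cytosolic ribosomal protein genes were picked by the wording of their annotation, which gave 18 listed genes and may leave others out. Of the 13 tested, 1 was called, AT5G47700, chosen after its value was seen (0.56 ± 0.13, adjusted p 0.0331). Its call ended without ecap-2 3 h replicates 1 or 2, ecap-2 0 h replicates 2 or 3, WT 3 h replicates 1, 2 or 3 or WT 0 h replicates 1 or 3, each in turn, and with only the libraries compared (adjusted p 0.0529 to 0.0987). Of 44 tested organelle-encoded genes limma called 0, with 1 at an unadjusted p under 0.05 and a median of -0.14.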

How the data were processed

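The labels give total RNA from whole seedlings, sequenced on an Illumina HiSeq instrument. The authors deposited 1 table per library of FPKM per gene ID, per the file headers. TopHat2, Cufflinks and the TAIR10 build are named in the submitters' processing notes, with versions not given in the sources used here. FPKM keeps no read counts, so no count test was run, and relative depth came from the ratios of FPKM in 2731 genes whose mean was at most 0.15. No 2 libraries had the same value in more than 0.32% of tested genes, values of 0 included.

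Changes were estimated with limma 3.58.1 in R 4.3.3 on log2(FPKM + 1), with 6 group means over all 18 libraries, a trended robust empirical Bayes spread (12 residual and a median of 4.564 prior degrees of freedom) and Benjamini-Hochberg adjustment over 17835 genes. A gene had to reach 1 FPKM in 3 or more libraries. The procedure was tested on simulated data. The members, tests and lists were chosen with earlier results of these data known: 26 lists of 302 genes (287 listed, 264 tested), the cytosolic ribosomal and organelle genes, and 6 lists added after the values were seen.

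The naming rule took the 12 largest called interactions in each direction with libraries apart and a highest group mean of at least 5 FPKM, up to 3 of each sign pattern, up to 4 called members of a list (or 2 of highest FPKM where none was called), and any member of the flavonoid, anthocyanin, JAZ and co-repressor lists. Genes outside it, among them LOX2, VSP2, the members of added lists without a call and those under other observations, were chosen after their values were seen. Symbols, coordinates and promoter sequences came from RefSeq's TAIR10.1 table and genome, which matched 22122 of 22209 IDs. Transcripts were compared with blastn 2.17.0+ (at least 90% identity over at least 50% of the length). The exons of ECAP, TPL, MYC2, C3'H, F3H, TT19, UGT75C1, JAZ10, CM3, ADT1, PYK10, BAM3, PHS1, SOFL1, AZI3, EARLI1, EXPA18, 3AT1, TMT1, GTR2 and PPD5 overlap a neighbour, and the use of strand in counting is not given in the sources used here, so reads of such pairs cannot be told apart. Alternatives were other pseudocounts, filters, scalings, spread models, a replicate block, a correction for GC content and length (known for 17790 genes) and leaving out each of the 12 libraries. The result of 1 gene is not reported here.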

Additional observations from a re-analysis of the deposited data

Results flagged for a closer look

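Each result here is a response that differed between the genotypes by limma's test of the interaction at 3 h, as 432 genes did. Values are log2(FPKM + 1) differences, the response in ecap-2 minus that in WT, and all had an adjusted p under 0.05. On the route to lignin and flavonoids they were F3'H (2.19), CHS (0.83), CHI (0.70), CHIL (0.67), C4H (0.67), UGT78D2 (1.30), 4CL1 (0.95), HCT (0.84), CSE (0.74), UGT72E2 (0.78), C3'H (0.72), DHS1 (0.87), PPA-AT (0.69), DHD-SDH (0.39) and EPSPS2 (0.52). In the methionine cycle they were MS2 (1.04), SAHH1 (0.55) and MS1 (0.54). In JA synthesis, turnover and marker genes they were CYP94B1 (0.94), TAT3 (1.101), AOC2 (-1.12) and AOC3 (0.66). Other positive interactions were those of AAE12 (1.44), AT1G64590 (1.37), AT4G12500 (1.65), AT5G47700 (0.56), AZI3 (1.65), BAM5 (1.68), CYP81F3 (0.88), CYP82C4 (1.88), DIR5 (1.47), EXPA18 (0.67), FBA1 (0.76), FRO2 (1.51), GTR2 (0.56), LAC5 (0.86), MDHAR (1.02), MSRB9 (0.76), MSS1 (0.83), NRT1.5 (1.08), PMAT2 (1.34), PMSR2 (0.89) and TMT1 (0.49). Of these, BAM5 reversed to -0.45 with a pseudocount of 0.1. FRO2 and CYP82C4 were under 1 FPKM in every ecap-2 library at 0 h, and on this scale a level near 0 cannot fall far. AZI3 and AT4G12500 were under 1 FPKM in all WT libraries, which leaves little room for a change in WT. Lower responses in ecap-2 were those of AT1G53690 (-1.86), AT1G76620 (-1.18), AT5G57000 (-1.03), ATPC1 (-0.56), BGLU18 (-1.19), D27 (-1.23), GSTU19 (-0.54), GSTU25 (-0.59), GWD1 (-0.53), ISA2 (-0.59), ISA1 (-0.34), PHS1 (-0.42), PPD5 (-0.62), PYE (-0.53), SOFL1 (-1.02), SS4 (-0.53), TSA1 (-1.08) and YAB2 (-0.53). What lies behind these differences was not tested.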

How the results depend on the processing

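Of 63 called genes followed singly, 25 kept their call in every setting that tested them, the 2-fold limit aside. Among these 25, AT1G30545, AT1G53690 and AT5G42830 were not tested with a mean of at least 5 FPKM. The other 38 lost their call in at least 1 setting, and BAM5 reversed (-0.45 with a pseudocount of 0.1). The 432 interactions at 3 h became 134 to 1264 without 1 library, 67 to 608 higher and 62 to 656 lower, with the fewest without ecap-2 3 h replicate 2 and the most without ecap-2 0 h replicate 1. They became 658 with a pseudocount of 5 (362 higher), 778 at a common total (606 lower), 768 with nuclear genes only (595 lower), 3604 with library weights (2003 higher, 1601 lower) and 51 at 2-fold (35 higher, 16 lower), and 320 genes were lower after quantile normalization. Counts of 355 with a pseudocount of 0.1, 352 with no filter, 448 with a mean of at least 5 FPKM, 591 after trimmed mean scaling and 333 with only the libraries compared lay within 1.5 times of it. Interactions at 1 h (56) became 32 with a pseudocount of 0.1, 114 with one of 5, 15 with only the libraries compared, 213 with library weights, 19 at 2-fold, and 22 to 55 without 1 library. Shifts from 1 to 3 h (575) became 1107 at a common total, 1049 with nuclear genes only, 879 with only the libraries compared, 3087 with library weights, 48 at 2-fold, and 70 (without ecap-2 3 h replicate 2) to 1288 (without ecap-2 3 h replicate 3) without 1 library. The response to JA was called for 1303 genes at 2-fold and 6726 to 8160 without 1 library in ecap-2, against 1204 and 6358 to 6865 in WT. The genotypes differed for 1136 genes at 2-fold and 9080 to 9886 without 1 library at 3 h, and for 629 and 6531 to 7402 at 0 h. With the replicate number as a block, 789 interactions at 3 h were called (384 higher, 405 lower) and 1038 shifts (5 late anthocyanin genes were higher and 1 JAZ gene lower at 3 h), and with the GC and length correction beside the block 705 (351 higher, 354 lower), 107 at 1 h and 882 shifts. Whether the replicate numbers pair the samples was not settled. Deviations of same-numbered libraries correlated at -0.157 to 0.322, over 0.1 in 4 of 18 pairs, and 7 of 12 libraries correlated best with their own number. The causes of these changes were not tested. FPKM does not keep the depth, and genes near 0 FPKM are the least certain.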

Other observations

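Genes outside the route and the lists, chosen after their values were seen from those called in all 12 fits without 1 library and in 14 other settings, included enzymes against oxidation. MDHAR, a monodehydroascorbate reductase (AT3G09940), had 291, 294 and 274 FPKM in ecap-2 at 3 h and 19.3, 15.8 and 18.7 FPKM in ecap-2 at 0 h, against 173, 161 and 182 FPKM in WT at 3 h and 22.0, 25.1 and 19.2 FPKM in WT at 0 h. It rose in both genotypes and more in ecap-2 (interaction 1.02 ± 0.14, limma adjusted p 0.00255). The methionine sulfoxide reductases MSRB9 and PMSR2, which repair oxidised methionine, rose in both genotypes as well, with interactions of 0.76 ± 0.11 (adjusted p 0.00326) and 0.89 ± 0.14 (adjusted p 0.00641). Every ecap-2 library of MSRB9 and PMSR2 at 3 h lay above every WT library. MSS1, a hexose transporter (STP13), had 131, 139.5 and 118 FPKM in ecap-2 at 3 h and 10.9, 9.88 and 11.6 FPKM in ecap-2 at 0 h, against 54.9, 55.6 and 54.1 FPKM in WT at 3 h and 8.65, 8.76 and 6.66 FPKM in WT at 0 h (interaction 0.83 ± 0.13, adjusted p 0.00641), and the vacuolar carrier TMT1 had an interaction of 0.49 ± 0.088 (adjusted p 0.00998). GTR2, a glucosinolate transporter, had one of 0.56 ± 0.11 (adjusted p 0.0123).

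NRT1.5, which loads nitrate into the xylem, had 20.8, 20.8 and 20.8 FPKM in ecap-2 at 3 h and 92.9, 101 and 78.2 FPKM in ecap-2 at 0 h, against 6.43, 6.09 and 6.56 FPKM in WT at 3 h and 60.2, 72.0 and 61.5 FPKM in WT at 0 h. It fell in both genotypes and by less in ecap-2 (interaction 1.08 ± 0.20, adjusted p 0.0118). LAC5, a laccase of the family that joins lignin units, rose in ecap-2 and did not pass the test in WT (interaction 0.86 ± 0.13, adjusted p 0.00451). FBA1, a plastid aldolase, fell by less in ecap-2 (interaction 0.76 ± 0.14, adjusted p 0.0103). Genes with a lower interaction were chosen in the same way. ATPC1, the gamma subunit of the chloroplast ATP synthase, had 363, 362 and 372 FPKM in ecap-2 at 3 h and 341, 437 and 423 FPKM in ecap-2 at 0 h, against 595, 597 and 607 FPKM in WT at 3 h and 428, 425 and 479.8 FPKM in WT at 0 h. It rose in WT and did not pass the test in ecap-2 (interaction -0.56 ± 0.11, adjusted p 0.0137). PPD5, a PsbP domain protein of the thylakoid, had an interaction of -0.62 ± 0.11 (adjusted p 0.00998). The glutathione transferases GSTU25 and GSTU19 had -0.59 ± 0.10 (adjusted p 0.00813) and -0.54 ± 0.10 (adjusted p 0.0103), and the YABBY transcription factor YAB2, of leaf polarity, had -0.53 ± 0.093 (adjusted p 0.00865).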
